A study of Mus musculus with 19 samples.

Results

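Mouse cells that lacked both the miR-290 and the miR-302 microRNA cluster, labelled as induced pluripotent stem cells (iPSC), were compared with wild-type (WT) iPSC. The comparison used 7 of the 19 libraries of the series: 4 of the double knockout (double KO), chosen by genotype from the column labels as 2 colonies with 2 libraries each, and 3 of WT iPSC. All were made from mouse embryonic fibroblasts with Oct4, Sox2 and Klf4, grown in LIF and serum, and carried past passage 18 from the time of reprogramming before collection. The remaining libraries were iPSC and embryonic stem cells with 1 cluster knocked out. The 8 single-KO iPSC libraries (miR-290 KO and miR-302 KO, 2 colonies each) are used as a further comparison group, and they and the embryonic stem cell libraries also enter the estimate of spread behind each p-value. With only double KO and WT samples in the fit, 6633 genes were called. Strain and age of the fibroblast donors are not given in the labels used here. Each knockout colony was derived independently, whereas the series description excepts the WT iPSC controls from that statement. If the WT libraries come from a single derivation, their spread is only technical and the p-values below would be too low.

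The miR-290 and miR-302 clusters encode short RNAs, most of them with nearly the same seed, the bases by which a microRNA pairs with the 3′ untranslated region (UTR) of messenger RNAs. They are the most abundant microRNAs of mouse pluripotent cells, with miR-290 marking the naive and miR-302 the later, primed state. In embryonic stem cells they are known for relieving the G1/S restriction of the cell cycle by repressing inhibitors such as Cdkn1a, Rbl2 and Lats2, and for helping fibroblasts pass through reprogramming. Expression was measured by QuantSeq, which reads the 3′ end of polyadenylated RNA, so the mature microRNAs themselves were not measured and the knockouts could not be checked from these values.

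The mature sequences are shown because the analysis of target sites rests on their shared seed (bases 2 to 8, in capitals). They are RefSeq entries on GRCm38.p6, read 5′ to 3′. The list is not complete: no entry was found for miR-302a-3p and miR-292a-3p. Entries for miR-290b-3p and miR-292b-3p, on the minus strand and with other seeds, are not printed.
miR-302b-3p, chr3:127545275-127545297, plus strand: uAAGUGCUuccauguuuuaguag
miR-302d-3p, chr3:127545665-127545687, plus strand: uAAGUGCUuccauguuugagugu
miR-291a-3p, chr7:3218968-3218989, plus strand: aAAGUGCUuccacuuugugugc
miR-294-3p, chr7:3220691-3220712, plus strand: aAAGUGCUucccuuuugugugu
miR-295-3p, chr7:3220815-3220837, plus strand: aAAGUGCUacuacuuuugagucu
miR-302c-3p, chr3:127545406-127545427, plus strand: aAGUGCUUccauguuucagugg
miR-290a-3p, chr7:3218674-3218697, plus strand: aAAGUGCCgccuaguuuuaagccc
miR-291b-3p, chr7:3219529-3219550, plus strand: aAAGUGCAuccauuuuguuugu
miR-293-3p, chr7:3220390-3220411, plus strand: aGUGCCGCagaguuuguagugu

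The first 5 share the seed AAGUGCU across the clusters. The seed of miR-302c-3p is shifted by a single base, those of miR-290a-3p and miR-291b-3p differ at the last base, and miR-293-3p carries another seed. A match to the shared seed reads AGCACTT in a UTR (a 7mer-m8 site). AGCACTTA adds an A opposite the first base (an 8mer), and GCACTTA holds that A without the eighth base (a 7mer-A1). Sites of this kind from the UTRs of genes described below are shown with the match in capitals, from GENCODE transcripts on GRCm38.
Cdkn1a, 8mer at base 1107 of the UTR: accgtgggtgtcaaAGCACTTAgtgggtc
Cdkn1a, 7mer-m8 at base 435: cctcagacctgaatAGCACTTtggaaaa
Lats2, 8mer at base 195: tacagtatggaaagAGCACTTAttttgtg
Rbl2, 8mer at base 1384: gtatttttcaataaAGCACTTAtaaatta
Irf2, 8mer at base 442: gcaccttatcttgaAGCACTTAcaatagg
Tgfbr2, 7mer-m8 at base 491: ctcgggatagcgttAGCACTTgacaatc
Lefty2, 8mer at base 104: catcacccagtttaAGCACTTAcatgggt
Lefty1, 8mer at base 238: tgcactgtatgcgaAGCACTTAcatgtat

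The 7 libraries held between 14346106 and 18733257 recovered reads, so that depth was alike in the groups, and 3 reads over a group, the least that was taken as detected, came to 0.046 CPM (read counts scaled to a common library size) in the double KO and 0.0581 in WT. Across genes, the log2 values of a colony's 2 libraries correlated at 0.981 and 0.983, those of different double-KO colonies at 0.946 to 0.953, WT libraries at 0.963 to 0.969, and double KO with WT at 0.695 to 0.748. Of 12778 genes tested with limma, 3502 were higher in the double KO (27.4%) and 2753 lower (21.5%), 49.0% in all, at an adjusted p under 0.05. The counts are relative to the scaling: the median change of all genes was 0.16 on the log2 scale, and median-of-ratios scaling, which moved it to -0.05, gave 2898 higher and 3409 lower. Centring each library on its median gave 3077 and 3208. Every count of a gene group below has to be read against those background shares. In bulk RNA, fewer cells expressing a gene and less RNA per cell cannot be told apart. Levels are given in the order colony 1 library 1, colony 1 library 2, colony 2 library 1 and colony 2 library 2 for the double KO, then WT libraries 1 to 3, and every log2 fold change is double KO minus WT.

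The changes reached from absence to high expression and the reverse. In 680 genes the double KO was higher by at least 3 on the log2 scale, and in 971 it was lower by as much. At the level of presence, 202 genes with at least 10 CPM in WT were under 1 CPM in the double KO, and 137 genes showed the opposite. No read was found in any of the 4 double-KO libraries for 258 of the genes called lower, and no WT read for 5 of those called higher. These counts cover only genes in the matrix: the authors' deposited table of the same comparison lists 839 genes that are not in it, 505 of them higher in the double KO. All 6255 called genes had the same sign in both colonies, which the call itself favours, since both colonies enter the fit. Over all 12778 genes tested, called or not, the double-KO libraries lay above every WT library in 4603 and below every WT library in 3447. Absence of overlap in a gene named below has to be read against those counts.

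**Figure D1:**
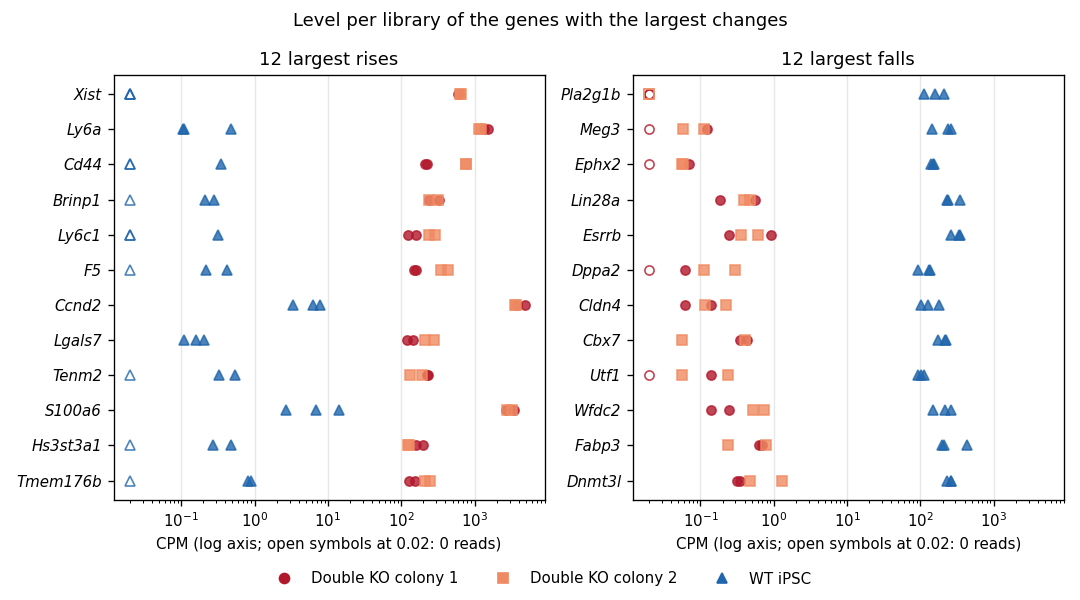
CPM (log axis) of the 12 genes with the largest rise and the 12 with the largest fall among called genes with at least 100 CPM in the higher group and no overlap between groups. Each symbol is a library of the double KO or of WT iPSC, and open symbols stand for 0 reads. The groups are separate in all 24 genes because the choice required it. Cd44 lay higher in colony 2 (760.2 and 756.5) than in colony 1 (225.5 and 211.3).

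Among genes in the matrix, the 12 largest rises included a non-coding RNA of the X chromosome, cell surface genes and a D-type cyclin. Xist, the RNA that coats an inactive X chromosome (chrX:103460366-103483254), had 598.6, 629.0, 647.9 and 623.2 CPM in the double KO and 0 reads in each WT library. It was at least 10760.8-fold higher, taking 3 reads over the WT group as the floor. Ccnd2, encoding cyclin D2 (chr6:127125162-127152193), had 3791.9, 4908.7, 3551.5 and 3648.3 CPM against 7.71, 6.19 and 3.38 in WT. Its log2 fold change was 9.50 (SE 0.34, adjusted p 4.91e-10). S100a6, a small calcium-binding protein, had 2654.9, 3437.1, 2779.9 and 3238.0 CPM against 2.72, 14.3 and 6.83 (log2 fold change 8.88, SE 0.56, adjusted p 9.32e-08).

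Brinp1, a brain-enriched gene, had 238.4, 324.2, 241.0 and 318.8 CPM in the double KO and 0, 0.214 and 0.276 in WT, a rise of 10.01 (SE 0.79). Tenm2, a cell adhesion protein of neurons, had 231.1, 225.6, 132.9 and 193.0 against 0.326, 0.534 and 0 CPM (9.11, SE 0.76). F5, coagulation factor V, was higher in colony 2 than in colony 1, with 150.3, 161.3, 345.1 and 436.4 CPM against 0.217, 0.427 and 0 in WT (9.69, SE 0.89). The galectin Lgals7 rose by 9.27 (SE 0.70), the heparan sulfate enzyme Hs3st3a1 by 8.85 (SE 0.84) and the membrane protein Tmem176b by 8.46 (SE 0.90).

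The largest falls included an RNA-binding protein, a methylation cofactor and a Polycomb subunit of pluripotent cells. Lin28a, the RNA-binding protein that blocks maturation of let-7 microRNAs (chr4:134003330-134018841), had 0.186, 0.558, 0.394 and 0.470 CPM in the double KO and 350.9, 236.5 and 229.1 in WT, a log2 change of -8.96 (SE 0.25, adjusted p 1.06e-10). Dnmt3l, the cofactor of de novo DNA methylation in germ cells (chr10:78041947-78063622), had 0.311, 0.349, 1.29 and 0.470 against 260.4, 226.8 and 262.7 CPM (-8.52, SE 0.27, adjusted p 2.28e-10). Cbx7, the Polycomb subunit typical of embryonic stem cells (chr15:79915807-79971119), had 0.435, 0.349, 0.0563 and 0.411 against 225.0, 212.7 and 171.0 CPM (-8.88, SE 0.39, adjusted p 3.42e-09). Fabp3, a fatty acid carrier, had under 1 CPM in each double-KO library and 207.1, 425.1 and 196.0 CPM in WT (-8.52, SE 0.32), and Wfdc2, a secreted protease inhibitor, fell by 8.64 (SE 0.42). Absence of overlap between the groups was part of the rule that chose the largest rises and falls.

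The label was checked against pluripotency genes, and the data went against it. Of 20 core pluripotency genes, 16 fell, 2 rose and 2 did not pass the test, with a median log2 fold change of -4.08. Nanog, a core factor of the pluripotent state (chr6:122707489-122714633), had 2.48, 2.79, 2.31 and 1.76 CPM in the double KO and 711.2, 650.4 and 706.3 in WT. Pou5f1 (Oct4), by contrast, remained detected at 29.5, 23.5, 23.4 and 20.8 CPM against 702.4, 505.9 and 743.4, a log2 fold change of -4.69 (SE 0.33), and Sox2 at 35.8, 19.5, 47.6 and 38.4 against 394.4, 330.2 and 425.0 (-3.46, SE 0.23). The cells are therefore called double-KO cells in what follows.

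The core genes were not lost to a like degree. Dppa2, a factor of early embryos and germ cells, and Utf1, a chromatin protein of pluripotent cells, were each under 0.3 CPM in every double-KO library, with falls of 8.93 (SE 0.27) and 8.75 (SE 0.28). Tdgf1, the Nodal co-receptor Cripto, was lower in colony 1 (2.11 and 4.11 CPM) than in colony 2 (14.1 and 12.2), against 423.2, 444.9 and 408.8 in WT (-6.01, SE 0.47). Fgf4, the FGF ligand made by pluripotent cells, had 123.4, 160.3, 211.5 and 213.1 CPM against 289.5, 241.3 and 297.8 (-0.63, SE 0.23, adjusted p 0.0391), a call lost under 6 of the 21 alternatives. The RNA-binding protein L1td1 went the other way (0.54, SE 0.20, adjusted p 0.0416), a call lost under 11 alternatives.

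Of 16 transcription factors of the naive state, 14 fell and 1 rose, with a median of -5.91. Esrrb, an orphan nuclear receptor, had 0.248, 0.906, 0.619 and 0.352 CPM in the double-KO cells and 338.6, 261.5 and 350.7 in WT (-8.94, SE 0.22, adjusted p 7.26e-11). Klf4, also a reprogramming factor, had 6.89, 4.95, 17.4 and 11.6 against 170.3, 122.1 and 219.8 CPM (-4.12, SE 0.34, adjusted p 1.24e-06). The member that rose was Nr1d2, a clock repressor not limited to pluripotent cells (1.17, SE 0.28, adjusted p 0.00454). Among 14 measured genes of the formative and primed states, 6 rose and 6 fell. Otx2 and Pou3f1, which mark the exit from the naive state, fell by 4.90 (SE 0.53) and 5.59 (SE 0.43), and Dnmt3b, a de novo methyltransferase, had 5.65, 6.27, 6.13 and 6.40 CPM against 77.0, 63.3 and 91.8 (-3.58, SE 0.29).

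Markers of other cell types were then counted over whole lists. Of 24 embryonic fibroblast markers, the cell of origin, 8 were in the matrix, of which 5 fell and 1 rose (median -2.32), and their summed level was 9.69 to 51.7 CPM in the double KO and 22.9 to 27.3 in WT. Col1a1, the main collagen of fibroblasts, had 0.186, 0.976, 0 and 0.352 CPM against 0.163, 3.42 and 3.24 (-1.92, SE 0.98, adjusted p 0.123), and Thy1, a fibroblast surface protein, was at 0 reads in 3 of the 4 double-KO libraries (-3.86, SE 0.79, adjusted p 0.00158). Fbln2, a matrix protein, was the member that rose, with 37.8 and 40.6 CPM in colony 1 and 3.77 and 6.52 in colony 2, against 0.598, 0.427 and 1.03 in WT (4.20, SE 0.97, adjusted p 0.00333). Further fibroblast markers were listed only in the authors' deposited table of the same comparison, with log2 fold changes there of 11.19 for S100a4, 9.87 for Col6a2, 9.50 for Col5a2, 7.30 for Dcn and 7.09 for Col6a1, and -5.52 for Meox1. The fibroblast list as measured in the matrix is thus a part of the whole.

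Trophoblast markers numbered 9, of which 5 fell and none rose (median -1.50). Gata2, a trophoblast transcription factor, had 0.248, 0.836, 1.24 and 1.35 CPM against 7.88, 34.3 and 8.76 (-3.81, SE 0.80), with WT library 2 above the others. Cdx2, which specifies trophoblast, separated the colonies, with 0.745 and 0.279 CPM in colony 1 and 20.8 and 21.9 in colony 2, against 1.90, 2.24 and 5.52 in WT. Its change was -2.28 without colony 2 and 2.87 without colony 1, each resting on 1 colony, and 0.30 over both (adjusted p 0.837).

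Of 11 primitive endoderm markers, 5 rose and 4 fell (median 0.31). The risers were all matrix or matrix-processing genes, and the transcription factor that defines the lineage, Gata4, had no double-KO read and was at least 26.5-fold lower, from 1.47, 0.801 and 1.45 CPM. Col4a1 and Col4a2, the collagen chains of basement membranes, showed no overlap between groups. Col4a1 had 605.7, 684.5, 706.1 and 742.4 CPM against 24.4, 30.6 and 18.6 (4.86, SE 0.31, adjusted p 1.06e-07), and Col4a2 had 314.9, 427.1, 324.8 and 368.7 against 6.46, 12.8 and 5.66 (5.54, SE 0.54).

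The 12 neural markers divided into 6 that rose and 4 that fell (median 1.30). Sox11, a factor of neural progenitors, had 995.5, 1162.8, 897.4 and 839.8 CPM against 33.0, 37.3 and 35.8 (4.81, SE 0.32, adjusted p 1.50e-07). Pou3f2, also a neural factor, had 41.6, 25.8, 10.4 and 7.75 against 0.272, 0.267 and 0.414 CPM (5.29, SE 0.70). Pax6 and Otx1, regional neural factors, fell from levels under 2 CPM. Tubb3 and Nrcam, named here after their values were seen, were the other members that fell. Pax6 had 3 reads in the double KO and was 18.1 times lower in CPM (exact 95% limits 5.80 and 91.3), and Otx1 had none and was at least 23.2-fold lower.

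In the remaining lineages few markers stood high. Of 10 mesoderm markers 2 rose and 3 fell (median -0.55): Kdr, a receptor of vascular progenitors, reached 13.9, 21.2, 9.90 and 5.75 CPM against 0, 0.160 and 0 in WT, 211.3 times higher (exact 95% limits 72.0 and 1026.8), while T (Brachyury), the early mesoderm factor, fell by 4.88 (SE 0.85). Of 10 cardiac genes 5 fell and 1 rose (median -2.38, or -2.96 when unread genes take their bound). That riser, Mef2c, is a factor of muscle and neurons and had 218.0, 202.0, 76.9 and 73.3 CPM against 0.380, 0.747 and 0 (8.32, SE 0.88, adjusted p 9.58e-06). All 5 measured definitive endoderm markers were called, 4 lower and Sox9 higher (median -2.47), but 3 without colony 1 and 3 with limma's voom on the recovered reads. Gsc, an organizer factor, had 0 reads in the double KO and was at least 62.3-fold lower. Of 4 genes of the 2-cell stage, 3 fell and none rose (median -3.74). Zscan4c, the best known of them, belongs to a family of near-identical copies, so its value is uncertain.

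**Figure D2:**
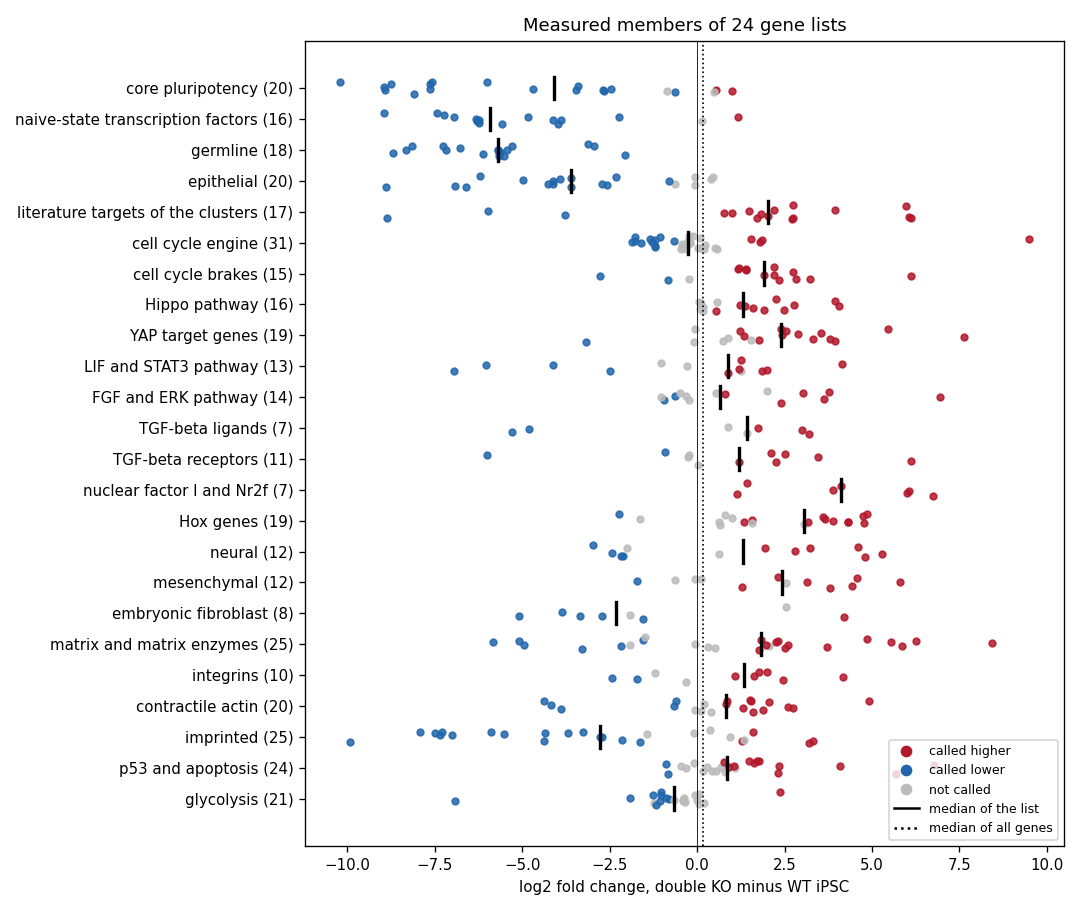
Log2 fold change, double KO minus WT iPSC, of each measured member of 24 gene lists. Points are genes, red where called higher, blue where called lower and grey where not called; black marks are list medians and the dotted line is the median of all genes (0.16). Germline genes lie wholly on the lower side (median -5.68) and nuclear factor I and Nr2f genes wholly on the higher side (median 4.12).

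All 18 measured germline genes, of 23 listed, were lower. Their median was -5.68 (-6.57 when unread genes take their bound). Their summed level was 1.18 to 6.69 CPM in the double KO and 452.5 to 660.4 in WT. In 8 of them no read was found in the double-KO libraries, so they are in the matrix through other libraries alone. A rise was not open to those genes, and the one-sided count in part reflects which genes the matrix holds. Dazl, an RNA-binding protein of germ cells (chr17:50279395-50293636), was not read in the double KO and had 19.6, 17.9 and 24.3 CPM in WT, so that it was at least 441.8-fold lower. Rpl39l, the testis form of a ribosomal protein, was not read in the double KO either and was at least 1373.5-fold lower, its WT levels being 49.3, 37.7 and 113.6 CPM. Rpl10l, another such form, had 2 reads in all against 2776, which in CPM is 1753.8 times fewer (exact 95% limits 485.1 and 14489.2, from counting error alone).

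The literature targets of the clusters were mostly higher. Of 17 genes, 14 rose and 3 fell (median 2.04), against 27.4% and 21.5% of all genes. Lats2, a kinase that restrains YAP (chr14:57689662-57758388), had 140.4, 149.0, 117.3 and 101.6 CPM against 11.0, 7.05 and 7.24 (3.95, SE 0.49, adjusted p 4.05e-05). Rbl2, a pocket protein that holds cells in G1 (chr8:91070057-91123844), had 18.1, 26.2, 23.6 and 19.8 against 2.34, 3.90 and 3.72 CPM (2.73, SE 0.51). Irf2, an interferon regulatory factor, had 28.6, 34.6, 18.0 and 18.2 against 0.217, 0.641 and 0.0690 CPM (5.98, SE 0.64, adjusted p 1.11e-05), and is named here after its value was seen. Groups did not overlap in these genes.

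An 8mer did not go with a rise in every case. Lefty1 and Lefty2, secreted inhibitors of Nodal whose sites are printed above, fell by 5.99 (SE 0.40) and 8.86 (SE 0.24). The third member that fell was Dkk1, a WNT inhibitor named here after its value was seen, with 2 double-KO reads and a level 80.9 times lower in CPM (exact 95% limits 21.9 and 674.9). Tgfbr2, the type II receptor of TGF-beta, had 19.8, 19.4, 21.8 and 17.3 CPM against 0, 1.07 and 0 (6.12, SE 1.07).

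Over all genes, the longest match to the shared seed in the 3′ UTR was recorded. Of 11612 genes with an annotated UTR of at least 50 bases, 397 held an 8mer (3.42%), 1514 a 7mer-m8 as the longest match (13%), 371 a 7mer-A1 (3.19%) and 9330 none (80.3%). The strand of the UTR was searched, and each gene was counted once, by its longest match. Genes with an 8mer were higher in 41.3% and lower in 12.1%, genes with a 7mer-m8 in 32.6% and 17.8%, genes with a 7mer-A1 in 35.8% and 14%, and genes without a match in 26.5% and 22.7%. The median log2 fold changes were 0.60, 0.36, 0.46 and 0.11. With 0, 1, 2 and 3 or more sites the medians were 0.11, 0.37, 0.61 and 0.71, over 9330, 1785, 374 and 123 genes.

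UTR length moved with the number of sites. The median UTR had 2748 bases in the 8mer class and 820 in the class without a match. Among UTRs at or above the median length of 1026 bases, the medians were 0.60 for an 8mer, 0.40 for a 7mer-m8, 0.54 for a 7mer-A1 and 0.30 for none. Among shorter UTRs they were 0.59 (56 genes), 0.08, 0.25 and -0.03. Matches to the let-7 seed, searched in the same way, gave medians of 0.04 for an 8mer, 0.14 for a 7mer-m8, 0.34 for a 7mer-A1 and 0.16 for none. These are descriptions of classes, not tests, and a match is not evidence of binding.

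**Figure D3:**
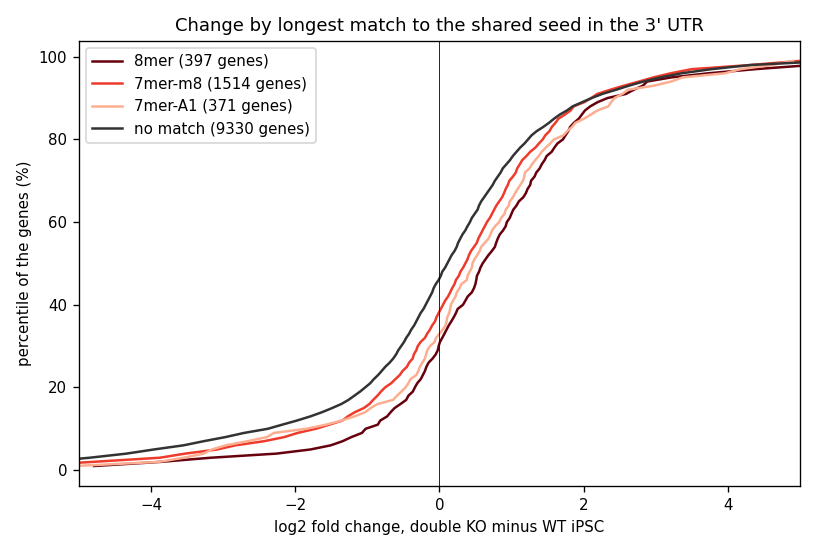
Percentile of the genes (vertical axis, %) against log2 fold change, double KO minus WT iPSC (horizontal axis), for genes grouped by the longest match to the shared seed in the 3′ UTR. The 8mer curve lies to the right of the curve without a match, with medians of 0.60 and 0.11.

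Most inhibitors of the cell cycle rose, while genes of its engine went both ways. Of 15 brakes, 12 rose and 2 fell (median 1.91), a count that was 7 in all without colony 2. Cdkn2c, the CDK4/6 inhibitor p18 (chr4:109660876-109667189), had 31.4, 34.2, 24.1 and 30.2 CPM against 0.380, 0 and 1.03 (6.11, SE 0.78, adjusted p 4.75e-05). Cdkn2a, the locus of p16 and p19Arf (chr4:89274471-89294653), had 298.6, 289.0, 216.9 and 246.7 against 28.3, 32.3 and 25.7 CPM (3.22, SE 0.52). Cdkn1a, encoding p21 (chr17:29090976-29100727), had 759.3, 991.7, 863.3 and 797.0 against 191.6, 160.2 and 226.7 CPM (2.19, SE 0.22, adjusted p 6.57e-06).

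Those 3 inhibitors showed no overlap between groups. The brakes that fell were Cdkn1c and Btg1. Cdkn1c, the imprinted inhibitor p57, had 8.07, 8.36, 1.01 and 1.76 CPM against 17.4, 37.7 and 23.5 (-2.79, SE 0.71, adjusted p 0.00612), and Btg1, an anti-proliferative gene, fell by 0.83 (SE 0.27, adjusted p 0.0246), a call lost under 6 alternatives.

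Of 31 genes of the cell cycle engine, 4 rose and 11 fell (median -0.27), 48.4% called against 49.0% of all genes. Mki67, the proliferation marker Ki-67, named here after its value was seen, was among those that rose, with 285.8, 348.7, 311.0 and 331.9 CPM against 101.4, 94.0 and 88.2 (1.79, SE 0.22, adjusted p 2.86e-05). Next to Ccnd2, Ccnd1, encoding cyclin D1, had 330.6, 348.9, 207.1 and 219.1 CPM against 242.5, 157.6 and 165.1 (0.58, SE 0.29, adjusted p 0.117). The E cyclins moved in opposite directions. Ccne1 had 50.9, 54.8, 48.1 and 52.9 CPM against 216.4, 153.1 and 189.5 (-1.79, SE 0.25, adjusted p 9.92e-05), and Ccne2 had 59.9, 56.8, 69.0 and 67.2 against 16.2, 18.1 and 18.6 (1.87, SE 0.25, adjusted p 6.77e-05). Mcm5, a subunit of the replicative helicase, fell from 463.0, 384.6 and 473.9 to 125.9, 98.5, 123.1 and 120.8 CPM (-1.87, SE 0.20).

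In the TGF-beta family, Nodal, its co-receptor Tdgf1 and its inhibitors Lefty1 and Lefty2 fell, while Bmp4, Tgfbr2 and the Id genes rose. Of 7 ligands, 3 rose and 2 fell (median 1.44). Nodal, which acts in pluripotent cells (chr10:61417972-61425338), had 1.06, 2.37, 2.93 and 7.51 CPM against 126.4, 118.9 and 106.6 (-5.30, SE 0.33, adjusted p 8.32e-08). Bmp4, which induces the Id genes, had 66.7, 106.3, 28.5 and 47.0 against 9.89, 5.77 and 3.93 CPM (3.20, SE 0.51), whereas Bmp7, a related ligand, fell by 4.80 (SE 0.78). Gdf15, a stress-induced ligand, rose by 3.01 (SE 0.39). Inhba and Tgfb3 were not in the matrix and had log2 fold changes of 11.65 and 5.90 in the authors' deposited table.

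Of 11 receptors and co-receptors, 6 rose and 2 fell (median 1.20). Eng, a co-receptor, had 87.9, 126.8, 48.3 and 72.1 CPM against 8.69, 5.61 and 7.66 (3.47, SE 0.42), and Acvr2b, an activin receptor, fell by 0.91 (SE 0.34, adjusted p 0.0445), a call lost under 8 alternatives. Of 14 mediators and inhibitors 6 rose and 3 fell (median 0.56, 4 calls in all without colony 1). Bambi, a decoy receptor, had 89.3, 113.8, 37.4 and 28.8 against 10.1, 20.6 and 23.4 CPM (1.80, SE 0.52). Nog, a BMP antagonist, rose by 2.61 (SE 0.96, adjusted p 0.0380), and this call was lost under 6 alternatives.

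The 10 target genes gave 7 rises and 2 falls (median 1.80). Id1, an inhibitor of differentiation factors induced by BMP, had 478.0, 409.8, 909.2 and 770.6 CPM against 39.1, 20.8 and 19.7 (4.63, SE 0.42, adjusted p 2.38e-06), and Id2 had 251.6, 302.3, 746.7 and 656.5 against 45.5, 37.2 and 32.1 (3.57, SE 0.32). Both were higher in colony 2. Tgfbi, a target of TGF-beta itself, fell by 3.25 (SE 0.61). Tagln, a smooth muscle gene, was not called (-0.06, SE 0.92, adjusted p 0.966). WT library 2 held 12.3 CPM of it against 1.20 and 0.690 in the other WT libraries, and without that library the change was 1.13 (adjusted p 0.174).

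Genes of the Hippo pathway, in which LATS kinases keep the coactivators YAP and TAZ out of the nucleus, were higher where they were called. Of 16 members 10 rose and none fell (median 1.30), and 8 of them rose under median-of-ratios scaling. Yap1 itself had 149.0, 169.6, 149.1 and 153.6 CPM against 136.5, 138.2 and 155.9 and was not called (0.16, SE 0.28, adjusted p 0.670; -0.05 under median-of-ratios scaling). Vgll3, a TEAD cofactor, had 53.2, 34.4, 31.7 and 33.6 against 2.17, 7.05 and 0.621 CPM (4.05, SE 0.90).

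Of 19 YAP target genes, 13 rose and 1 fell (median 2.40). Igfbp3, a secreted IGF-binding protein (chr11:7206086-7213923), had 1075.7, 1465.2, 756.4 and 769.4 CPM against 2.44, 6.94 and 7.17 (7.62, SE 0.53, adjusted p 2.43e-07). Axl, a receptor tyrosine kinase, had 65.7, 76.7, 207.1 and 207.8 against 2.77, 2.30 and 3.10 CPM (5.46, SE 0.47). The member that fell, Fjx1, was under 3 CPM in all libraries (-3.19, SE 0.51). Lats2 is a member of both lists and of the literature targets, so these counts are not independent.

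The LIF pathway, which sustains naive cells through STAT3, changed in both directions. Of 13 members 6 rose and 4 fell (median 0.88). Lifr, the LIF receptor, had 39.9, 45.7, 72.7 and 68.0 CPM against 20.6, 20.4 and 31.1 (1.25, SE 0.27, adjusted p 0.00197). The kinases rose as well: Jak1 had 229.9, 275.2, 239.6 and 242.5 against 59.4, 53.2 and 79.8 CPM (2.00, SE 0.23), and Jak2 had 60.4, 80.3, 37.4 and 45.4 against 1.85, 4.91 and 2.97 (4.13, SE 0.39). STAT3 targets went both ways. Socs3, a feedback inhibitor named here after its value was seen, had 65.2, 55.2, 67.8 and 34.1 CPM against 16.5, 12.3 and 17.2 (1.85, SE 0.49, adjusted p 0.008), whereas the naive-state factor Tfcp2l1 fell. It had 0.807, 0.906, 7.03 and 9.10 CPM against 443.4, 288.3 and 369.6 (-6.95, SE 0.60).

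Of 14 genes of the FGF and ERK pathway, 6 rose and 2 fell (median 0.66, 5 calls in all without colony 1). Spry4, a feedback inhibitor induced by ERK, had 34.2, 30.9, 27.4 and 25.5 CPM against 0.272, 0.107 and 0 (6.95, SE 0.58, adjusted p 1.17e-06). Etv4, an ETS factor also induced by ERK, had 33.6, 56.3, 19.7 and 23.4 against 2.77, 0.747 and 4.55 CPM (3.78, SE 0.75). Il17rd, an FGF antagonist, fell by 0.95 (SE 0.24). The ligands Fgf5 and Fgf8 had log2 fold changes of -5.82 and -5.32 in the authors' deposited table, where the receptors Fgfr3 and Fgfr4 had 3.76 and -5.33.

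Of 22 WNT pathway genes 6 rose and 5 fell (median 0.04), which became 4 and 7 under median-of-ratios scaling, and without colony 2 only 6 were called. The share called in the main fit, 50.0%, was near the 49.0% of all genes. Sfrp2, a secreted WNT inhibitor, was at most 0.124 CPM in the double KO and at 7.12, 5.61 and 8 in WT (-4.99, SE 0.59). Fzd2, a receptor, had 43.5, 34.9, 70.2 and 62.5 against 9.51, 20.8 and 18.8 CPM (1.74, SE 0.44). Wnt3, a ligand, was higher mainly in colony 2, with 22.5 and 23.4 CPM, against 3.60 and 3.14 in colony 1 and 1.58, 3.31 and 1.59 in WT. Its call (2.09, SE 0.78, adjusted p 0.0419) was lost under 7 alternatives, and the groups overlapped.

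Epithelial genes were lower as a group, with 15 of 20 lower and none higher (median -3.62). Their summed level was 164.0 to 506.7 CPM in the double KO and 1189.7 to 1486.6 in WT. Cldn4, a tight junction protein, was at 0.0621, 0.139, 0.225 and 0.117 CPM against 125.3, 176.2 and 102.5 (-8.89, SE 0.29, adjusted p 2.28e-10). Cdh1, encoding E-cadherin (chr8:106603351-106670246), differed between colonies, with 9.69 and 15.7 CPM in colony 1 and 98.0 and 116.6 in colony 2, against 659.1, 461.9 and 606.4 in WT (-3.92, SE 0.60).

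Claudins and keratins were also counted as whole families. Of 7 claudins 5 fell and 1 rose (median -3.62). The riser was Cldn12 (1.73, SE 0.28), and Cldn6 fell to 1 read in the double KO, 1067.7 times lower in CPM (exact 95% limits 191.1 and 42221.9). Of 8 keratins 4 fell and none rose (median -3.22, or -3.83 when unread genes take their bound). Krt8, a keratin of simple epithelia, had 0.497, 0.767, 1.46 and 0.763 CPM against 36.6, 229.1 and 44.6 (-6.20, SE 0.67), and its partner Krt18 had 0.124, 0.558, 0.281 and 0.0587 against 24.3, 155.1 and 21.6 (-6.91, SE 0.71). WT library 2 was highest in both, and without it 12 epithelial genes were called instead of 15.

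Of 12 mesenchymal genes 7 rose and 1 fell (median 2.43). Vim, the intermediate filament of mesenchymal cells, had 3145.1, 3006.9, 2124.2 and 1718.6 CPM against 155.9, 83.1 and 117.6 (4.44, SE 0.30). Zeb2, a repressor of E-cadherin, had 36.4, 27.0, 20.9 and 16.7 against 0.489, 0.854 and 0 CPM (5.81, SE 0.82), and Cdh2, encoding N-cadherin, had 220.8, 163.5, 178.4 and 201.8 against 12, 6.46 and 6.62 (4.58, SE 0.57). Itga5, the fibronectin receptor subunit, was the member that fell (-1.72, SE 0.32).

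Of 20 genes of contractile actin, 11 rose and 5 fell (median 0.84). The largest rise on the list was that of Lmna, which encodes the nuclear lamins A and C and no contractile protein. Lmna had 409.1, 376.3, 588.9 and 516.3 CPM against 12.7, 14.8 and 20.6 (4.92, SE 0.38, adjusted p 5.74e-07). Zyx, a focal adhesion protein, had 60.3, 65.9, 60.4 and 48.5 against 6.57, 13.4 and 8.07 (2.73, SE 0.47). Tpm2, a tropomyosin, fell in colony 1 to 0 and 0.139 CPM and in colony 2 to 4.50 and 6.81, against at most 28.1 in WT (-4.39, SE 0.94). Cnn1, a smooth muscle calponin, had 1 read in the double KO and was 254.0 times lower in CPM (exact 95% limits 45.1 and 10080.9).

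Of 25 matrix genes 13 rose and 6 fell (median 1.84). Thbs1, an adhesive glycoprotein that can activate TGF-beta (chr2:118111876-118127133), had 208.7, 288.6, 100.2 and 59.1 CPM against 0, 1.01 and 0.276 (8.43, SE 0.92). Timp2, a protease inhibitor, had 205.3, 390.3, 110.2 and 133.6 against 2.39, 3.95 and 1.38 CPM (6.25, SE 0.63). Col18a1, a basement membrane collagen, fell from 157.5, 156.1 and 104.6 to 1.24, 2.30, 2.76 and 2.82 CPM (-5.85, SE 0.29), and Mmp2, a gelatinase, fell by 5.09 (SE 0.42).

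Among 10 integrin genes 6 rose and 2 fell (median 1.35). Itgb1, the common beta chain, had 495.7, 495.9, 441.9 and 409.9 CPM against 83.5, 92.0 and 83.9 (2.45, SE 0.22), and Itgb4, which anchors epithelial cells to laminin, had 193.9, 196.5, 252.1 and 401.8 against 17.1, 11.3 and 14.6 (4.17, SE 0.59). Itga9 fell by 2.44 (SE 0.52).

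Surface proteins that are followed during reprogramming were nearly all called, 6 higher and 7 lower of 14 (median -1.02). Cd44, a hyaluronan receptor that is lost on the way to iPSC (chr2:102811141-102901665), had 225.5, 211.3, 760.2 and 756.5 CPM against 0, 0 and 0.345. Ly6a (Sca-1), a surface protein of stromal and stem cells (chr15:74994877-74998031), had 1350.8, 1519.9, 1217.6 and 1133.7 against 0.109, 0.107 and 0.483 CPM, and Ly6c1, its relative, had 125.0, 159.8, 284.2 and 236.7 against 0, 0.320 and 0 (9.87, SE 0.87). Icam1, gained late in reprogramming, had 1 read in the double KO and 34.9, 19 and 33.7 CPM in WT (1878.9 times lower, exact 95% limits 336.7 and 74263.1). Pecam1, an adhesion protein of pluripotent and endothelial cells, fell by 7.55 (SE 0.32). Thy1, which fibroblasts carry and lose early, was lower in the double KO than in WT, where it was at 5.21, 2.08 and 2.41 CPM.

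Chromatin regulators were called about as often as all genes (49.0%). Of 15 genes of DNA methylation 4 rose and 4 fell (median 0.38, 53.3% called). Next to the falls of Dnmt3l and Dnmt3b stood a rise of the demethylase Tet3, with 30.1, 38.4, 30.6 and 33.6 CPM against 1.58, 1.76 and 2.69 (4.02, SE 0.38, adjusted p 3.60e-06). Of 20 Polycomb genes 5 rose and 5 fell (median 0.28, 50.0% called). Bmi1, a subunit of the differentiated-cell type of complex, had between 99.2 and 126.5 CPM against 11.4, 9.93 and 10.1 (3.39, SE 0.29, adjusted p 1.63e-06), and Cbx8, a further subunit, rose by 3.64 (SE 0.83) while Cbx7 fell.

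Of 25 imprinted genes 16 fell and 4 rose (median -2.79). Meg3, a maternally expressed non-coding RNA (chr12:109541001-109571726), had 0.124, 0, 0.113 and 0.0587 CPM against 234.4, 259.3 and 143.7 (-9.93, SE 1.31), and Rian, from the same cluster, had at most 0.124 CPM against 57.2, 67.3 and 47.5 (-7.92, SE 0.99). H19, a growth-related non-coding RNA, had 5.65, 13.4, 1.58 and 0.939 CPM against 69.2, 414.2 and 148.7 (-5.51, SE 0.77), with WT library 2 highest. Peg3 and Sgce, paternally expressed genes, rose by 3.21 (SE 0.48) and 3.32 (SE 0.70). Slc38a4, an imprinted amino acid transporter, fell by 7.34 (SE 0.24). Allele-specific reads were not part of the data.

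The sex chromosomes differed with the groups. All 4 tested genes of the Y chromosome were lower in the double KO (median -4.36), among them the 3 measured members of the Y-linked list (median -4.11). Ddx3y, a helicase, had 0, 0.279, 0.169 and 0.235 CPM against 7.93, 8.06 and 8.69 (-4.83, SE 0.30), and Eif2s3y, a translation factor subunit, had 2 reads and was 94.1 times lower in CPM (exact 95% limits 25.6 and 784.5). The single-KO iPSC differed in these genes too. Ddx3y had a mean of 47.4 CPM in miR-290 KO and 6.37 in miR-302 KO iPSC, against 8.23 in WT. Eif2s3y had 16.1 and 0.964 CPM, against 2.83 in WT. Of 4 X-inactivation genes 2 rose and 1 fell (median 2.47). With Xist, Ftx, a non-coding RNA beside it, had 6.40, 5.79, 16 and 11.0 CPM against 0.706, 0.480 and 0.207 (4.04, SE 0.73), and Tsix, the antisense RNA that opposes Xist, fell by 5.78 (SE 0.38). Reads of Xist and Tsix overlap on opposite strands, so that their separation depends on the strand of the counting. Sex-chromosome content of the cells and genotype cannot be told apart here.

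Of 17 genes of microRNA processing 5 were higher and 4 lower (median 0.06, -0.15 under median-of-ratios scaling). The share called, 52.9%, was near the 49.0% of all genes. With Lin28a its paralog Lin28b fell, from 11.7, 14.8 and 13.3 to 0.559, 0, 0 and 0.0587 CPM (-5.84, SE 0.33). Tnrc6b, a silencing cofactor of Argonaute, had 89.9, 111.9, 96.0 and 98.3 CPM against 24.3, 25.1 and 33.3 (1.89, SE 0.25), and Prkra, a partner of Dicer, rose by 2.48 (SE 0.34). Of 12 let-7 targets 6 fell and 2 rose (median -0.88), 7 and 1 under median-of-ratios scaling. Hmga1, a chromatin protein, fell from 1458.9, 1050.5 and 1384.4 to 546.9, 425.7, 483.3 and 435.2 CPM (-1.41, SE 0.21), Plagl2, a zinc finger factor, rose by 1.90 (SE 0.41), and the rise of Hmga2 (1.21, SE 0.46, adjusted p 0.0438) was lost under 9 alternatives. Mature let-7 was not measured.

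Of 24 genes of p53 signalling and apoptosis 12 rose and 2 fell (median 0.86). Trp53 itself had 76.0, 54.3, 79.5 and 75.4 CPM against 90.3, 75.4 and 142.3 (-0.45, SE 0.36, adjusted p 0.321). Bcl2, which protects cells from apoptosis, had 69.4, 71.0, 38.7 and 42.7 against 0.163, 0.854 and 0.276 CPM (6.78, SE 0.61, adjusted p 2.30e-06). Perp, a p53 target of cell junctions, had 288.0, 339.7, 360.4 and 360.7 against 6.79, 10.9 and 3.66 CPM (5.70, SE 0.47). Both genes that fell, Casp9 and Mcl1, changed by less than 1 (-0.88, SE 0.27, and -0.83, SE 0.20).

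Glycolytic, ribosomal and respiratory genes were more often called lower than higher. The share called in either direction was 47.6% for glycolysis, 59.5% for ribosomal proteins and 41.8% for the respiratory chain. Over all genes it was 49.0%. Of 21 glycolytic genes 9 fell and 1 rose (median -0.66, 5 calls in all without colony 1). Pfkp, the platelet form of phosphofructokinase, had 0.683, 1.18, 1.41 and 0.528 CPM against 119.9, 92.9 and 185.1 (-6.91, SE 0.29, adjusted p 1.72e-09). Of 84 cytosolic ribosomal protein genes 50 fell and none rose (median -0.62). Without colony 2 there were 30 such calls, and under median-of-ratios scaling 67. Of 79 respiratory chain genes 26 fell and 7 rose (median -0.34), or 35 and 4 under median-of-ratios scaling, and 19 were called in all without colony 2. Cox7a1, a cytochrome oxidase subunit, fell from 62.7, 67.0 and 83.6 to 0.435, 1.53, 1.52 and 1.53 CPM (-5.75, SE 0.29), while Cox6b2, another subunit, rose by 1.87 (SE 0.44).

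Of 195 solute carriers 49 rose and 52 fell (median 0.10, or -0.10 under median-of-ratios scaling). The share called, 51.8%, was near the 49.0% of all genes. Amino acid transporters were at both ends. Slc7a11, the cystine transporter, had 127.8, 121.7, 45.5 and 54.9 CPM against 0.923, 0.374 and 0 (7.57, SE 1.00), and Slc7a3, a transporter of cationic amino acids, had 1.06, 2.23, 0.169 and 0.939 against 210.9, 135.5 and 171.3 (-7.39, SE 0.53).

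Of 20 genes of interferon response and antigen presentation 4 rose and 5 fell (median -0.24), or 3 and 6 under median-of-ratios scaling. As a share, calls in this list were slightly fewer than the 49.0% of all genes, so the list as a whole did not stand out. B2m, the light chain of MHC class I, had 266.5, 425.6, 543.2 and 649.3 CPM against 32.9, 44.8 and 51.7 (3.44, SE 0.35, adjusted p 6.99e-06), and Tap1, the peptide transporter, had 33.5, 32.9, 18.2 and 17.0 against 1.14, 2.88 and 1.45 (3.77, SE 0.60). The heavy chain H2-K1 fell by 2.08 (SE 0.46), but class I genes are highly alike, so reads may be split among them.

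All 7 genes of the nuclear factor I and Nr2f families, transcription factors of many differentiated tissues, rose (median 4.12). Nfia (chr4:97772734-98118874) had 212.5, 203.1, 190.0 and 246.6 CPM against 1.96, 1.87 and 1.86 (6.74, SE 0.53, adjusted p 7.48e-07). Nr2f2, which is also a literature target with 7mer-A1 matches, had 74.1, 68.7, 152.7 and 159.7 against 1.47, 1.60 and 1.45 CPM (6.05, SE 0.68). The smallest rise of the 7 was 1.15, in Nr2f6, named here after its value was seen.

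Of 19 Hox genes, which specify position along the body axis, 11 rose and 1 fell (median 3.06). Hoxa5 had 44.5, 30.3, 27.7 and 34.0 CPM against 1.25, 1.65 and 0.552 (4.85, SE 0.55, adjusted p 1.66e-05), and Hoxb4 had 23.4, 21.9, 16.4 and 20.6 against 0.598, 1.17 and 0.345 (4.76, SE 0.65). Hoxc4 was the member that fell, from 4.83, 2.30 and 7.38 to 1.12, 1.25, 0.338 and 0.763 CPM (-2.23, SE 0.73). Members differed by colony in both directions, the examples being chosen after their values were seen. Hoxb13 was higher in colony 1, with 19.6 and 17.3 CPM against 5.51 and 7.46 in colony 2, and so was Hoxb9, with 5.96 and 7.04 against 0.281 and 0.176. Hoxa10 and Hoxc9 were higher in colony 2, with 11.3 and 12.2 CPM of Hoxa10 in colony 2, 0 reads in colony 1 and 0.0543, 0 and 0 CPM in WT.

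The double-KO cells were then set against the mean of the single-KO iPSC groups. In this contrast 3346 genes were higher (26.2%) and 2662 lower (20.8%). It shares the double-KO samples with the comparison to WT, so the values stand side by side and are not independent. Many lists gave counts close to those against WT, for example core pluripotency 1 higher and 17 lower of 20 (median -4.43), germline 0 and 15 of 18 (-5.23), cell cycle brakes 12 and 1 of 15 (1.90), YAP targets 13 and 1 of 19 (1.87), epithelial genes 0 and 14 of 20 (-3.48), and literature targets 13 and 3 of 17 (1.33). Others gave fewer calls, such as glycolysis with 0 higher and 4 lower of 21 and interferon genes with 2 and 4 of 20. Hox genes gave 10 and 1 of 19, with a median of 1.21 against 3.06 in the comparison with WT.

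Some risers had intermediate means in miR-290 KO iPSC. Ccnd2 was at a mean of 57.3 CPM in miR-290 KO and 8.93 in miR-302 KO iPSC, and double KO minus the single KOs was 7.87 (SE 0.32, adjusted p 1.55e-09). Id1 was at 189.4 and 35.4 CPM (difference 3.10, SE 0.39), Vim at 432.0 and 121.7 (3.48, SE 0.29) and Sox11 at 184.9 and 54.1 (3.34, SE 0.30). Among genes that fell, Nanog had means of 505.7 and 643.9 CPM in the single KOs (difference -7.67, SE 0.25). Lin28a was also intermediate, with 155.4 and 172.4 CPM in the single KOs against 272.2 in WT and 0.402 in the double KO (difference -8.21, SE 0.24). Lats2 had 17.1 and 7.55 CPM (3.90, SE 0.47), and Cdkn1a 354.9 and 210.8 (1.71, SE 0.21). L1td1 did not pass the test in this contrast (0.32, SE 0.19, adjusted p 0.191).

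The 2 double-KO colonies also differed from each other. Among called genes the median absolute difference between colonies was 0.31 on the log2 scale. It was at least 1 in 873 of them and at least 3 in 61. Over all genes tested, called or not, it was at least 3 in 202. A call favours genes on which the colonies agree, so the values for called genes understate the difference. The list members called with a difference of at least 3, named for that difference after it was seen, included the naive-state genes Tcea3 (-4.85, colony 1 minus colony 2), Tbx3 (-3.06) and Tfcp2l1 (-3.04), and the junction genes Dsp (-4.19) and Cdh1 (-3.10). The matrix inhibitor Timp3 (-3.86) was also higher in colony 2, whereas Foxc1 (4.15), a mesoderm factor, Nid1 (3.43), a basement membrane protein, and Snrpn (4.39), an imprinted gene, were higher in colony 1.

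Changes were also summed by chromosome, with each library centred on its median over genes of at least 10 CPM in both groups. Chromosome 6 had the largest share of genes called higher. Of its 584 tested genes 42.6% were higher, against 27.4% of all genes, and its median log2 fold change was 0.65 against 0.16. The centred median of its genes was 0.48, 0.40, 0.48 and 0.49 above the WT mean in the double-KO libraries, between -0.01 and 0.03 in the WT libraries, and between -0.08 and 0.17 in the single-KO libraries. Ccnd2 and Nanog both lie on chromosome 6, and they changed in opposite directions.

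Chromosomes 2 and 11 were raised in colony 1 alone, with 0.43 and 0.46 for chromosome 2 against 0.01 and -0.02 in colony 2, and 0.27 and 0.28 for chromosome 11 against 0.03 and 0.07. Genes of chromosome 8 were lower in all 4 double-KO libraries (-0.28, -0.29, -0.19 and -0.23), while those of the X chromosome were higher (0.26, 0.25, 0.28 and 0.23). Shifts were not limited to the double KO. Genes of the X chromosome were at 0.36 in library 2 of miR-302 KO colony 2, and between -0.08 and 0.07 in the other single-KO libraries. Genes of chromosome 8 were raised in all 8 single-KO libraries (0.10 to 0.37), and in colony 2 of miR-290 KO iPSC the genes of chromosome 18 were at 0.36 and 0.49. Copy number was not measured, and the part of these chromosome-wide shifts in the changes of single genes was not tested.

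**Figure D4:**
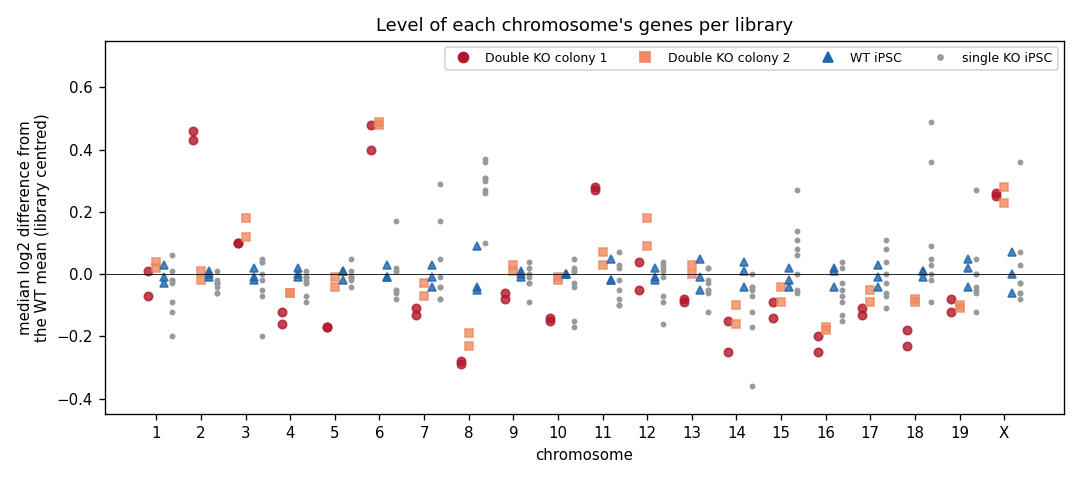
Median log2 difference from the WT mean (vertical axis) of the genes of each chromosome (horizontal axis), one symbol per library, after centring each library; genes with at least 10 CPM in both groups. Chromosome 6 is raised in all 4 double-KO libraries (0.40 to 0.49), and chromosomes 2 and 11 are raised in colony 1.

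The authors' deposited table of this comparison listed 8672 genes, 4038 higher and 4634 lower. Of the 7833 that were also in the matrix, 7828 had the sign of the limma value (99.9%), and 95.1% of the limma calls were listed. The table and the matrix come from the same libraries, so this is a check of the processing and not an independent measurement.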

How the data were processed

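Libraries were made with the QuantSeq 3′ FWD kit from 200 ng of total RNA and read as single ends of 50 bp, per the labels. Per the submitters' processing notes, the tools were Trim Galore 0.66, STAR, Salmon 1.4.0, FastQC 0.11.9, MultiQC, limma and DESeq2 1.34.0, with mm10; their roles and order are not given in the sources used here. The deposited matrix holds log2 values for 12778 genes, which, judged from the values, are CPM on a log2 scale plus a prior, each gene offset by its own constant. Differences between libraries are therefore valid and levels are not. Whole reads were recovered for 12239 genes (95.8%), with 99.66% of values whole within 0.02 of a read, and the CPM printed here come from them; the other 539 genes have fold changes only. The deposited comparison table holds, per the file headers, the authors' log2 fold changes, the mean signal (normalized counts), a Wald score and both raw and adjusted p-values. A further 6 columns of the matrix match no sample of the series and were left out, and 19 genes appear under names that a spreadsheet turned into dates.

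Averaging the libraries within each colony left 13 samples (6 groups). All entered one limma 3.58.1 fit (R 4.3.3, variance trend, 7 residual degrees of freedom), with Benjamini-Hochberg adjustment over all genes and calls under 0.05. The design had planned a count model in case the matrix held counts, which it does not. On simulated data with 200 changed genes per run of 12778, the comparison of double KO with WT recovered 17.6% of changes of 1 and 86.8% of changes of 3 on the log2 scale, and 5.78% of calls were false; with the many calls of the real data the adjusted threshold is less strict than in these runs. The named genes and the 47 gene lists were chosen with earlier results of these data known, so no list supports a result by itself. The rule names genes marked as key in a list, the 2 largest called rises and falls of each list, and the 12 largest rises and falls without overlap between groups and with at least 100 CPM in the higher group; members outside it are marked as chosen after their values were seen. Folds against a group with 0 reads use 3 reads over the group as floor and are lower bounds; ratios with 1 to 3 reads carry an exact (Clopper-Pearson) 95% interval. Without molecular identifiers, reads can be copies of a molecule, and these floors and limits reflect counting error alone. No batch or date is given in the labels. Genes with near-identical copies (Zscan4c, H2-K1) are uncertain. Gene positions and UTRs are from GENCODE on GRCm38. Some members of the lists are counted but not reported here by name.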

Additional observations from a re-analysis of the deposited data

Results flagged for a closer look

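In 237 genes the double-KO colonies lay on opposite sides of every WT library, which a mean over colonies hides, and in 65 of them each colony was at least 1 log2 unit from WT. The difference between colonies was not tested, since each colony is 1 sample. Among the largest such splits were 3 genes. Xlr3a, an X-linked gene of a family with close copies, was at 3.44 in colony 1 and -4.09 in colony 2, as log2 differences from WT. Igsf10, an immunoglobulin superfamily gene, was at 5.55 and -2.96, with 106.5 and 75.1 CPM in colony 1, 0.169 and 0.0587 in colony 2, and 1.90, 1.65 and 1.93 in WT. Aldh1a2, which makes retinoic acid, was at -4.47 and 2.52, with 0 reads in colony 1, 16.5 and 18.4 CPM in colony 2, and 2.72, 2.83 and 3.59 in WT.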

How the results depend on the processing

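Counts of called genes kept within 1.5 times their value in the alternatives run (21 against WT and 20 against the single KOs): 4495 to 6716 for double KO minus WT with 1 colony or library left out (lowest without colony 1), and 5336 to 6633 otherwise; 4023 to 6330 and 5465 to 6883 against the single KOs, where leaving out colony 1 moved the count from 6008 to 4023. For double-KO and WT libraries of the same number, deviations from the group mean correlated between -0.02 and 0.02. The double-KO deviations hold the difference between colonies, so this check cannot decide whether the numbers pair samples. The fit with the number as a replicate block, made with each library as a sample, gave 5336 calls, 3130 higher and 2206 lower. Libraries as samples without the block gave 6163. Of 47 lists, 36 kept their count within 1.5 times in every alternative. Where only genes of at least 1 CPM were tested, mesoderm and cardiac genes gave 3 calls each, fewer genes being tested; with log2(CPM + 1) and with voom, genes of the 2-cell stage gave 1; with voom, definitive endoderm gave 3. With a colony left out, the lone one is assumed to vary like the other groups. With a sample left out, calls ran from 7 to 14 for brakes, 4 to 10 for TGF-beta mediators, 5 to 8 for FGF, 6 to 13 for WNT, 5 to 10 for glycolysis, 3 to 5 for definitive endoderm, 30 to 61 for ribosomal proteins, 19 to 37 for the respiratory chain (lowest without colony 2), 3 to 4 for the 2-cell stage, 5 to 6 for mesoderm and 6 to 7 for cardiac genes.

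Of 177 named genes, 151 kept direction and call in every alternative. Signs turned for Yap1 (-0.05, median-of-ratios scaling), Cdx2 (from -2.28 without colony 2 to 2.87 without colony 1) and Tagln (from -0.82 without WT library 3 to 1.13 without WT library 2, with 0.53 without colony 2), and Col1a1 was called at -3.09 without WT library 1. The causes were not tested. A gene that was not called may still differ.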
